A study of Mus musculus with 8 samples.

Results

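The peroxisome is an organelle that shortens fatty acids too long or too branched for mitochondria, oxidises bile acid intermediates and phytanic acid, and passes hydrogen peroxide to catalase. The transcripts described here are 36 listed mouse genes: 12 peroxins, which build the organelle, 22 enzymes of peroxisomal lipid oxidation and 2 peroxisomal membrane proteins. Members were found by gene symbol, older synonyms included, among probe sets that name exactly 1 gene. All 36 had 1 such probe set each, out of 19938 genes measured in this way.

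Livers of C57BL6 mice were profiled on 8 Affymetrix Mouse Gene 1.0 ST arrays, 1 array per liver sample, with values given as log2 signals. In the hydrogen water group, 4 samples came from mice that drank water with dissolved hydrogen for 4 weeks, starting at 7 weeks of age. The control group had 4 samples from mice of the same strain, told apart by their titles, source names and descriptions, none of which mentions hydrogen. The protocol field, however, carries the same hydrogen water text for all 8 samples, so the drinking water and age of the controls are not given separately. Both groups were fasted for 17 h before the livers were taken. Whether every array is its own animal is not spelled out in the labels, so p-values measure the spread between these samples, which may be technical. The labels give no batch, sex or diet.

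In liver, fasting and the nuclear receptor PPARalpha are known to raise many of these enzymes. Fatty acids enter as coenzyme A (CoA) esters. An oxidase, a bifunctional enzyme and a thiolase then remove carbons in cycles, and thioesterases or carnitine transferases release the shortened products for export. Peroxins bring enzymes into the organelle: receptors bind a targeting signal in the cytosol, dock at the membrane, release their cargo and are pulled back out for reuse.

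None of the 36 genes passed the test between the groups. In limma with Benjamini-Hochberg adjustment over all genes, the lowest adjusted p of a member was 0.687, and 0 of all 19938 genes (0%) passed an adjusted p of 0.05. At an unadjusted p under 0.05 by limma, 1 member was called, against 7.17% of all genes. In 0 of the 36 genes did the 4 hydrogen water values lie wholly apart from the 4 control values, which was so for 3.76% of all genes. For 35 of the 36 genes the 95% interval of the difference lay inside 1 log2 unit (a 2-fold change) in either direction, as it did for 98.9% of all genes. For 25 genes (11 of 12 peroxins, 13 of 22 enzymes and 1 of 2 membrane proteins) it lay inside 0.5 log2 units, against 78.7% of all genes. All 36 genes were above the median level of 5.87, and 70.7% of genes above that level had such an interval. Precision is limited by having 4 arrays in a group. Array medians over all probe sets were 5.27 to 5.37 on the log2 scale, and arrays correlated with each other at 0.988 to 0.995 over all genes. Signals of different probe sets were not compared as amounts, since probes differ in brightness.

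**Figure D1:**
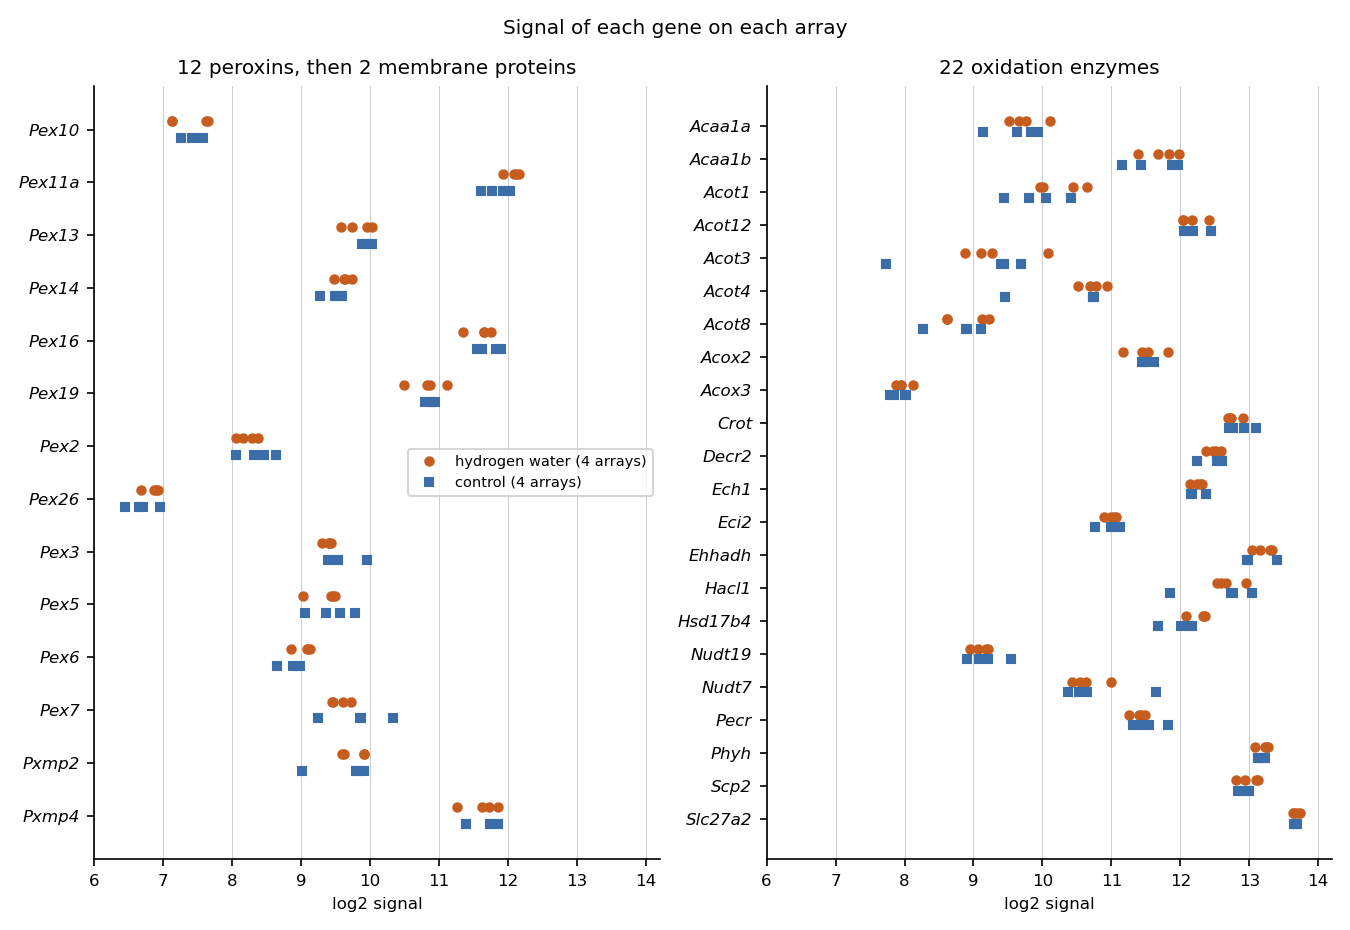
Log2 signal (horizontal axis) of each of the 36 genes on the 4 hydrogen water arrays (circles, upper row of each gene) and the 4 control arrays (squares, lower row). The groups overlap for every one of these genes, and single controls stand far to the left for Acot3 (7.73) and Acot4 (9.45).

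The array that stood apart for these genes was control 3. For 14 of the 22 oxidation enzymes, control 3 gave the lowest signal of the 8 arrays, against 18.4% of all genes and 26.3% of genes above the median level of 5.87. The enzymes concerned were Acox3, Ehhadh, Hsd17b4, Acaa1a, Acaa1b, Eci2, Decr2, Acot1, Acot3, Acot4, Acot8, Hacl1, Nudt7 and Nudt19. In these 14, control 3 lay below the mean of the other 7 arrays by a median of 0.56 on the log2 scale. The shortfall was smallest for Acox3 (−0.18) and largest for Acot3 (−1.68). In 21 of the 22 enzymes control 3 was below the mean of the other 7 arrays, against 48.4% of all genes. Acot12, at 12.44 on control 3, was the exception and highest there. Over all genes control 3 was the lowest array for 18.4% and the highest for 19.8%, the largest share of any array on either side. Brighter genes in general sat lower on control 3: their median signal around each gene's mean was −0.05 above the median level, against 0.01 over all genes. In the enzymes it was −0.24, at a median level of 11.58, against 7.99 for genes above the median level and 9.51 for peroxins. Genes as bright as the enzymes were not compared separately. Among peroxins control 3 was the lowest array for 4 of 12. Differences below are over all arrays unless control 3 is said to be left out.

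The deepest dips on control 3 were those of Acot3 and Acot4, acyl-CoA thioesterase genes whose enzymes split fatty acids from CoA. In mouse both enzymes are peroxisomal, and Acot1 codes for a close relative in the cytosol. The promoters of Acot1, Acot3 and Acot4 are shown because these genes lie close together on chromosome 12 and were all lowest on the same array. Acot2, a further thioesterase gene whose promoter is not shown, was not lowest there. It gave 11.15 on control 3 and was lowest on control 1, at 10.67. The RefSeq windows of GRCm38.p6 run from 250 bases before the annotated start to 50 bases after it, at chr12:84038129-84038428 for Acot4, chr12:84051894-84052193 for Acot3 (the first of its 2 windows) and chr12:84009252-84009551 for Acot1, all on the + strand. Capitals mark the hexamer AGGTCA, the core letters bound by PPARalpha and other nuclear receptors, read on either strand.
Acot4: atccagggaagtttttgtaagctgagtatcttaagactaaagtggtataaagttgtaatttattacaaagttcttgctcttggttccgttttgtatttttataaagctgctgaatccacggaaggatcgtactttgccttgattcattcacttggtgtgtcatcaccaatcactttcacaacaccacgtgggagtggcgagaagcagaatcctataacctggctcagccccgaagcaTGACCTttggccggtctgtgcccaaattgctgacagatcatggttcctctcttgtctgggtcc
Acot3: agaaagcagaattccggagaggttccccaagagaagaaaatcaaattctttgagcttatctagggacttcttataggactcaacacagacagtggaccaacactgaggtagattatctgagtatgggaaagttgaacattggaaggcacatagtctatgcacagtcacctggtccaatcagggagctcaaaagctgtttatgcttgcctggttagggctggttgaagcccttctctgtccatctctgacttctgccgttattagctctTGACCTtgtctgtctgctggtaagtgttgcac
Acot1: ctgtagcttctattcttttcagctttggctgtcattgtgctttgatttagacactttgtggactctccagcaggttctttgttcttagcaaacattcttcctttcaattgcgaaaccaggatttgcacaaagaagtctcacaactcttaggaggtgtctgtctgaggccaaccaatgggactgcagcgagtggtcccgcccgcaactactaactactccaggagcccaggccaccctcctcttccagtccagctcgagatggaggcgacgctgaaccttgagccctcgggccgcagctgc
The Acot4 window held 1 such hexamer, beginning 13 bases before the start, and the Acot3 window held 1, beginning 18 bases after the start, both as TGACCT on the strand shown. The Acot1 window held 0.

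Across the family, 32 of the 36 genes had a promoter window. The hexamer AGGTCA occurred, on either strand, in 6 of 32 (Acot3, Acot4, Acot12, Phyh, Scp2 and Slc27a2), all of them among the 21 oxidation enzymes with a window and 0 of the 10 peroxins. It occurred in 18.1% of the 27025 genes with a window of this length. The direct repeat known to be bound by PPARalpha with RXR, which is this hexamer 2 times in the same direction with any 1 base between, occurred in 0 of 32 members and in 0.0481% of all genes. Of 4 looser forms of the repeat, 3 matched 0 of 32 members: any base at the fourth position of the first copy (0.115% of all genes), at the fourth position of both copies (0.451%), and at the fourth position of both and the first position of the second copy (0.877%). The other form, with any base at the fourth position of both copies and at the first position of the first copy, matched Acot4 and Acox2, 2 of 32 members, and 0.929% of all genes. The GC box GGGCGG occurred in 24 of 32 members (8 of 10 peroxins and 15 of 21 enzymes) and in 38.2% of all genes. The letters CCAAT occurred in 16 of 32 members and in 41.1% of all genes, and TATAAA in 4 of 32 (Acot4, Pex14, Pex16 and Pex26) and in 15.7% of all genes. These counts describe the letters in these windows.

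The peroxins differed little between the groups. With hydrogen water, 4 of 12 had a higher mean and 8 a lower one, where 48.7% of all genes were higher. The median difference of the 12 was −0.07 log2 units, against −0.00 over all genes, and their differences ran from −0.26 to 0.24. At an unadjusted p under 0.05 by limma, 0 of the 12 were called (7.17% of all genes), and without control 3 this became 2, Pex7 and Pex11a, against 8.57% of all genes in the same fit. The unadjusted p was then 0.00668 for Pex7 and 0.0187 for Pex11a, and the limma adjusted p 0.488 and 0.52. These were the lowest p of either gene with 1 array left out. Both differences were smallest without control 1, at −0.09 for Pex7 and 0.17 for Pex11a. With 1 array left out, the unadjusted p by limma reached 0.582 for Pex7 and 0.172 for Pex11a.

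Pex11a, which drives elongation and division of peroxisomes and is a known PPARalpha target, had the smallest p among peroxins. Its log2 signal was 12.12, 12.08, 11.92 and 12.16 with hydrogen water, against 11.60, 11.92, 12.03 and 11.76 in controls. Of the 4 hydrogen water arrays, 3 lay above every control, and the group means were 12.07 ± 0.10 and 11.83 ± 0.19 (SD, n = 4 each). The difference of 0.24 (SE 0.12, 95% interval −0.01 to 0.50) corresponds to 1.19-fold, and it did not pass (limma adjusted p = 0.703). Without control 3 it was 0.31.

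Pex7 is the receptor for the amino-terminal targeting signal, carried by the thiolases of Acaa1a and Acaa1b and by Phyh. It gave 9.61, 9.73, 9.46 and 9.44 with hydrogen water, against 10.32, 9.87, 9.24 and 9.85 in controls. Of the controls 3 were above all hydrogen water values and control 3 was below them all. The difference was −0.26 (SE 0.19, limma adjusted p = 0.818) with all arrays and −0.46 without control 3. Pex5, the receptor for the carboxy-terminal signal that most matrix enzymes carry, gave 9.43, 9.03, 9.47 and 9.49 with hydrogen water, against 9.78, 9.56, 9.06 and 9.36 in controls. Of the hydrogen water values 3 lay inside the control range, and the difference was −0.08 (95% interval −0.43 to 0.26). Without hydrogen water 2, its low array, the sign turned (0.02), and without control 3 it was −0.21.

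The docking proteins went opposite ways in their means: Pex13 averaged 9.82 with hydrogen water and 9.96 in controls, a difference of −0.14 (SE 0.12), and Pex14 averaged 9.61 with hydrogen water and 9.48 in controls, a difference of 0.14 (SE 0.11) that was 0.07 without control 3. Both RING-finger subunits of the ubiquitin ligase that marks receptors for export had lower means: Pex2 differed by −0.15 (SE 0.13) and Pex10 by −0.04 (SE 0.14). Without control 3 Pex2 differed by −0.25.

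The export motor and its anchor stood on the other side. Pex6, an ATPase that pulls receptors out of the membrane, gave 9.13, 8.84, 9.08 and 9.10 with hydrogen water, against 8.94, 8.97, 8.64 and 8.87 in controls. Hydrogen water 2 lay among the controls and the others above them, for a difference of 0.18 (SE 0.11, limma adjusted p = 0.785) that was 0.11 without control 3. Pex26, which anchors that ATPase, gave 6.92, 6.67, 6.87 and 6.89 with hydrogen water, against 6.95, 6.65, 6.45 and 6.71 in controls. The difference of 0.15 (95% interval −0.11 to 0.41) was 0.07 without control 3, its lowest array.

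The peroxins that insert membrane proteins all had lower means with hydrogen water. Pex3, the membrane anchor for the carrier Pex19, gave 9.41, 9.40, 9.31 and 9.44 with hydrogen water, against 9.39, 9.53, 9.96 and 9.45 in controls. Control 3 was high here, not low, and the difference of −0.20 (SE 0.13, limma adjusted p = 0.798) was −0.07 without it. Pex16 differed by −0.13 (SE 0.12) and Pex19 by −0.06 (SE 0.13), the sign of Pex19 turning without hydrogen water 1 (0.05).

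**Figure D2:**
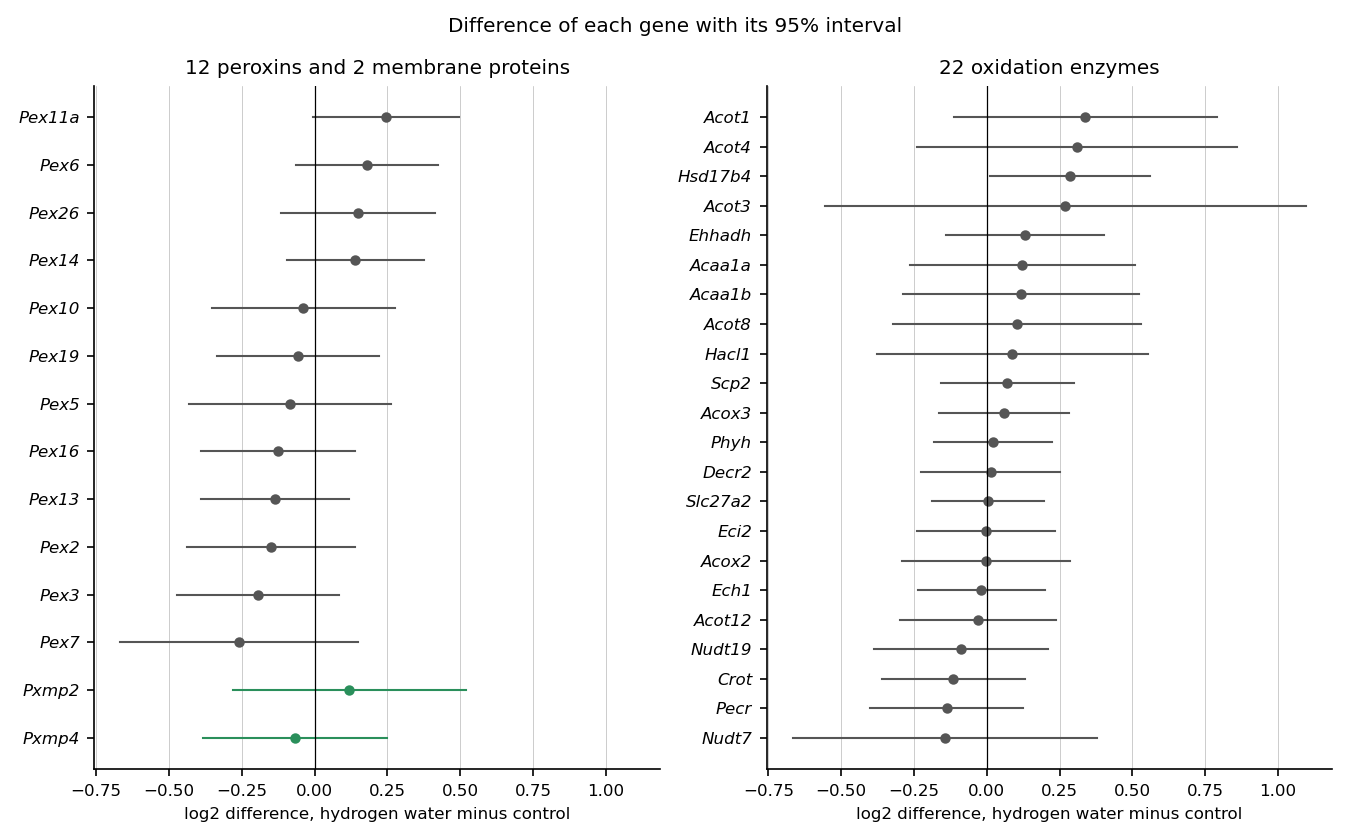
Difference in mean log2 signal, hydrogen water minus control (horizontal axis), for each gene (points) with its 95% interval from limma (lines); the 2 membrane proteins stand below the peroxins in green. The interval of Hsd17b4 (0.01 to 0.56) alone leaves out 0, and that of Acot3 (−0.56 to 1.10) is the widest drawn.

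Among oxidation enzymes, 14 of 22 had a higher mean with hydrogen water and 8 a lower one, where 48.7% of all genes and 51.5% of genes above the median level were higher. Their median difference was 0.04 log2 units against −0.00 over all genes, with a range of −0.14 to 0.34. Without control 3, 8 of 22 were higher and the median was −0.04. The sign turned for 8 enzymes, and 20 of the 22 differences were lower than with all arrays. Leaving out a low control raises the control mean, so these shifts restate the low values on control 3. At an unadjusted p under 0.05 by limma, 1 enzyme, Hsd17b4, was called (7.17% of all genes), and 0 without control 3 (8.57% of all genes).

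Hsd17b4 codes for the D-bifunctional protein, which handles the hydration and dehydrogenation steps for very long-chain, branched and bile acid substrates. It gave 12.34, 12.08, 12.36 and 12.34 with hydrogen water, against 12.13, 12.17, 11.68 and 12.00 in controls. All hydrogen water arrays except number 2 lay above every control, and control 3 lay lowest. Means were 12.28 ± 0.13 and 12.00 ± 0.22 (SD, n = 4 each), a difference of 0.29 (95% interval 0.01 to 0.56) or 1.22-fold. By limma the unadjusted p was 0.0438 and the adjusted p 0.687, and without control 3 the difference was 0.18 (unadjusted p = 0.127 by limma). The L-bifunctional enzyme Ehhadh, a classical PPARalpha target, differed by 0.13 (SE 0.12), with 13.21 in the hydrogen water group and 13.08 in controls. Its highest value of all, 13.40, was on control 2.

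Among the acyl-CoA thioesterases, Acot3 ranged widely from array to array, and Acot4 stood apart on control 3. Acot3 gave 9.11, 9.26, 10.08 and 8.88 with hydrogen water, against 9.69, 9.40, 7.73 and 9.44 in controls. Leaving aside hydrogen water 3 and control 3, the other 6 arrays lay between 8.88 and 9.69. Its spread within groups exceeded that of 99.7% of genes. The difference was 0.27 (95% interval −0.56 to 1.10) with all arrays and −0.17 without control 3. Acot4 gave 10.69, 10.77, 10.93 and 10.52 with hydrogen water, against 10.73, 10.75, 9.45 and 10.74 in controls. The other controls, at 10.73 to 10.75, lay inside the hydrogen water range, and the difference of 0.31 (SE 0.25, limma adjusted p = 0.851) was −0.01 without control 3.

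Acot1 gave 10.65, 10.44, 9.97 and 10.01 with hydrogen water, against 9.81, 10.42, 9.44 and 10.04 in controls. Hydrogen water 1 and 2 and control 2 were the high arrays, a different order from that of Acot3. The difference was 0.34 (SE 0.21, limma adjusted p = 0.782), or 0.17 without control 3. Acot8, a peroxisomal thioesterase of broad specificity, differed by 0.10 (SE 0.19) with all arrays and −0.07 without control 3. Acot12, a cytosolic acetyl-CoA thioesterase, differed by −0.03 (SE 0.12) with all arrays and 0.05 without control 3. Acot1, Acot3 and Acot4 are close in sequence, as are the thiolases Acaa1a and Acaa1b, so each of these signals may include transcripts of its relatives.

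Thiolases make the final cut of each cycle. Acaa1a differed by 0.12 (SE 0.18) and Acaa1b by 0.12 (SE 0.19). Both were lowest on control 3, at 9.15 and 11.15, and without it their differences were −0.04 and −0.03. Scp2, which codes for a sterol carrier protein and a thiolase for branched chains, differed by 0.07 (SE 0.10) and kept its sign without control 3 (0.04).

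Of the oxidases, which start each cycle and release hydrogen peroxide, Acox3 gave 7.95, 7.88, 7.95 and 8.12 with hydrogen water, against 8.01, 8.02, 7.79 and 7.85 in controls. The groups interleaved and the difference was 0.06 (95% interval −0.16 to 0.28). Acox2, which acts on bile acid intermediates and branched chains, differed by −0.00 (95% interval −0.29 to 0.28). Its values spread from 11.17 to 11.83 with hydrogen water and from 11.44 to 11.62 in controls.

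Slc27a2 and Phyh, at the entry to chain activation and alpha-oxidation, held close values on all arrays. Slc27a2 codes for a very long-chain acyl-CoA synthetase and transporter. It gave 13.64, 13.65, 13.70 and 13.73 with hydrogen water, against 13.69, 13.68, 13.67 and 13.65 in controls. All 8 arrays lay within 0.09 of each other, and the 95% interval of the difference was −0.19 to 0.20. Phyh, the phytanoyl-CoA hydroxylase, differed by 0.02 (SE 0.09), whereas Hacl1, the lyase after it in alpha-oxidation, ranged from 12.54 to 12.96 with hydrogen water and from 11.85 to 13.03 in controls. The Hacl1 difference was 0.09 (95% interval −0.38 to 0.55) and −0.16 without control 3.

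The auxiliary enzymes of Eci2, Decr2 and Ech1 rearrange or reduce double bonds so that unsaturated chains can be oxidised. Eci2, Decr2 and Ech1 differed by −0.00 (SE 0.11), 0.01 (SE 0.11) and −0.02 (SE 0.10). Without control 3 Eci2 differed by −0.08, Decr2 by −0.07 and Ech1 by −0.06, the sign of Decr2 turning. Pecr, a trans-2-enoyl-CoA reductase, gave 11.43, 11.25, 11.48 and 11.40 with hydrogen water, against 11.82, 11.43, 11.32 and 11.54 in controls. Control 1 was the high array, and the difference was −0.14 (SE 0.12, limma adjusted p = 0.861). Without control 3 it was −0.21.

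Crot, which moves shortened chains onto carnitine for export to mitochondria, differed by −0.12 (SE 0.11). The CoA-degrading hydrolases Nudt7 and Nudt19 differed by −0.14 (SE 0.24) and −0.09 (SE 0.14). Nudt7 stood at 11.65 on control 2, where hydrogen water arrays ran from 10.43 to 11.00 and the remaining controls from 10.37 to 10.64, and without control 2 its difference was 0.14. Without control 3 Nudt7 differed by −0.29 and Nudt19 by −0.18.

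The membrane proteins gave no common direction. Pxmp2, a channel-forming protein of the peroxisomal membrane, gave 9.90, 9.61, 9.91 and 9.59 with hydrogen water, against 9.91, 9.79, 9.01 and 9.82 in controls. Control 3 was again the low array, and the difference of 0.12 (SE 0.18) was −0.09 without it. Pxmp4 gave 11.62, 11.72, 11.26 and 11.86 with hydrogen water, against 11.39, 11.86, 11.73 and 11.75 in controls, a difference of −0.07 (SE 0.15).

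**Figure D3:**
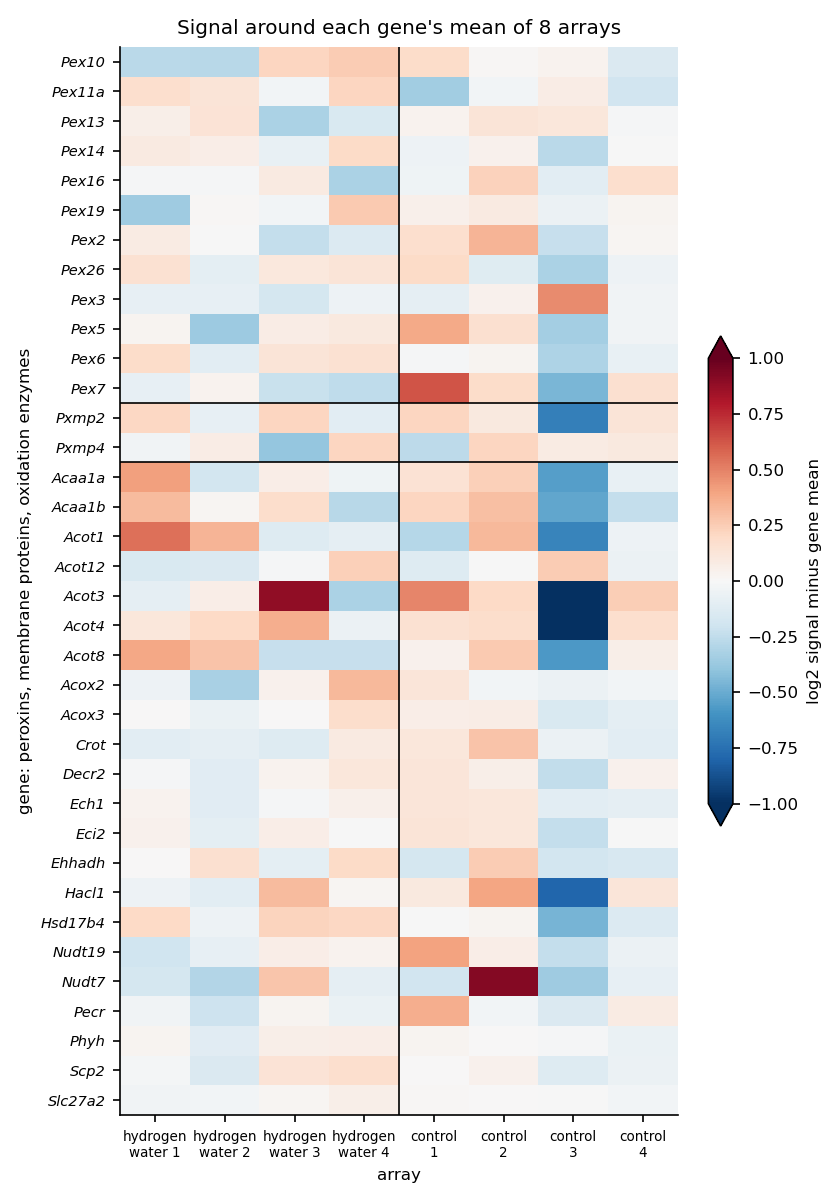
Log2 signal of each gene minus its mean over the 8 arrays (colour, limited to 1 unit in either direction), with genes as rows and arrays as columns. The control 3 column is blue for most oxidation enzymes; Acot3 and Acot4 there lie beyond the colour limit.

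Spread within groups was compared with and without control 3. The SD over 4 arrays was larger in controls than with hydrogen water for 17 of 22 oxidation enzymes and 8 of 12 peroxins, against 52.7% of all genes. The median SD of the enzymes was 0.14 with hydrogen water and 0.21 in controls. With control 3 left out, the SD of the remaining 3 controls was the larger for 8 of 22 enzymes and 5 of 12 peroxins, against 39.4% of all genes.

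**Figure D4:**
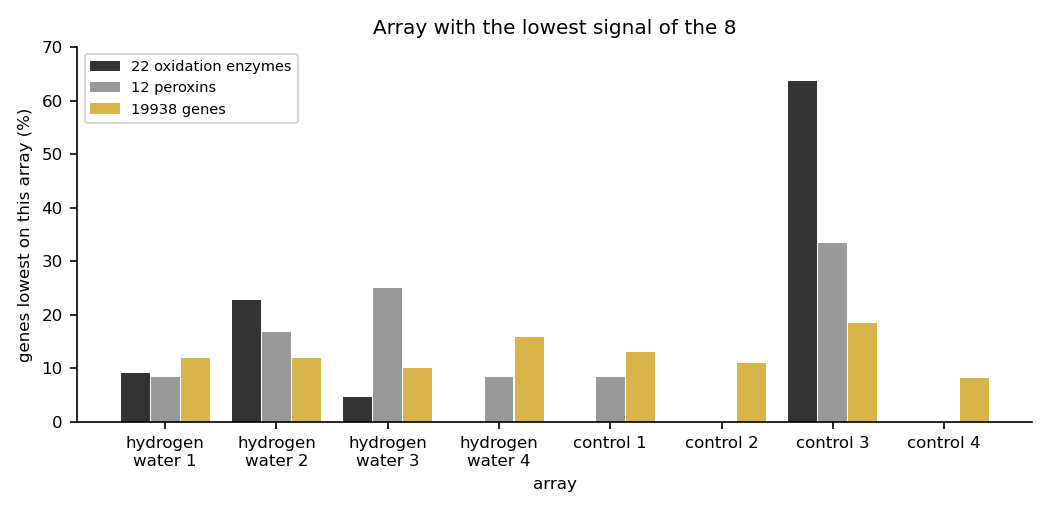
Percentage of genes (vertical axis) whose lowest signal of the 8 falls on each array, for 22 oxidation enzymes, 12 peroxins and 19938 genes. Control 3 holds 63.6% of the enzymes, 33.3% of the peroxins and 18.4% of all genes.

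**Figure D5:**
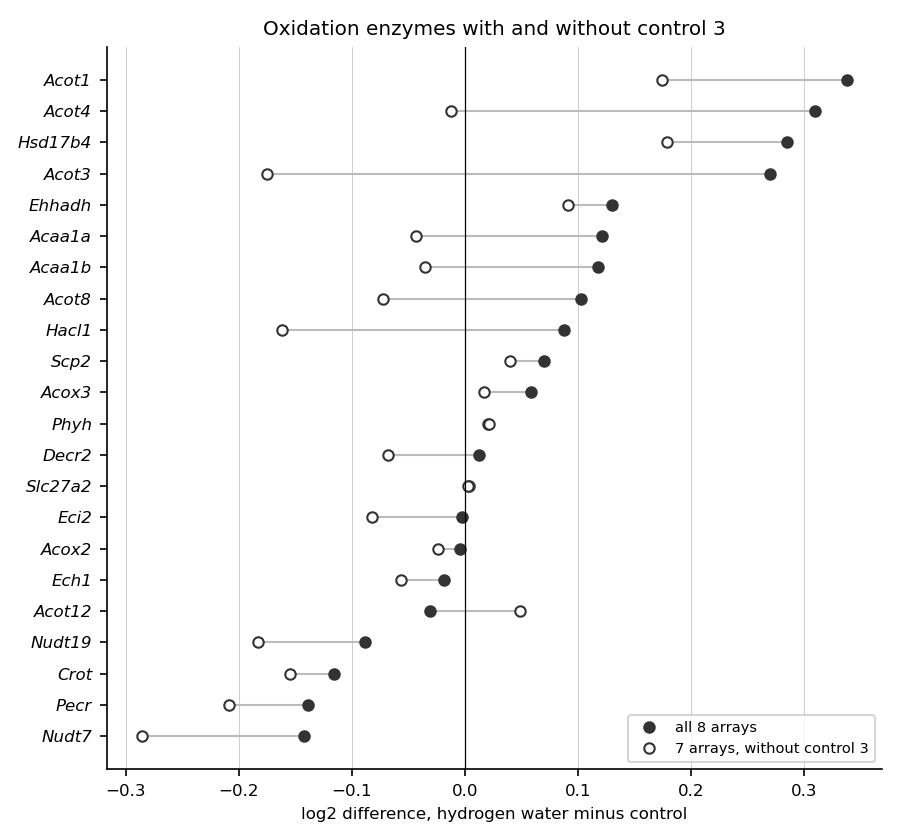
Difference in mean log2 signal, hydrogen water minus control (horizontal axis), of the 22 oxidation enzymes over all 8 arrays (filled) and over 7 arrays without control 3 (open). With all arrays 14 lie above 0, and without control 3 there are 8.

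Marker lists were set beside these values, given as the per-array mean of log2 signals around each gene's mean. Hepatocyte markers (9 measured of 12) lay between −0.02 and 0.09 with hydrogen water and between −0.03 and 0.00 in controls, with control 3 at −0.03. Periportal hepatocyte markers (6 of 9) lay between −0.17 and 0.28 with hydrogen water and between −0.40 and 0.20 in controls, and control 3 was the array at −0.40. Pericentral markers (10 of 10) lay between −0.12 and 0.075 with hydrogen water and between −0.06 and 0.08 in controls, with control 3 at 0.04. Of these 10, 6 were lower. At an unadjusted p under 0.05 by limma, 1 was called higher (3.6% of all genes), and 1 without control 3 (3.98%). Kupffer cell markers (14 of 14) lay between −0.14 and 0.53 with hydrogen water and between −0.36 and 0.09 in controls, with 13 of 14 higher. Sinusoidal endothelial markers (12 of 12) lay between −0.20 and 0.44 with hydrogen water and between −0.46 and 0.10 in controls, with 12 of 12 higher. At an unadjusted p under 0.05 by limma, 4 Kupffer cell and 3 endothelial markers were called higher (3.6% of all genes), and without control 3 there were 8 and 3 (3.98%). Stellate cell and fibroblast markers (12 of 12) lay between −0.29 and 0.14 with hydrogen water and between −0.08 and 0.24 in controls, with 6 lower and 1 of them called (3.57% of all genes). Adipocyte markers (7 of 8) lay between −0.24 and 0.04 with hydrogen water and between −0.06 and 0.31 in controls, with 5 lower and 1 called. Of cholangiocyte markers (6 of 8) 4 were lower, and of kidney tubule (8 of 8) and erythroid (3 of 6) markers 5 and 3 were higher, with 0 called in these lists. Without control 3, 1 cholangiocyte, 2 adipocyte and 0 stellate cell markers were called lower (4.59% of all genes). In a bulk liver sample, fewer cells of a type and less RNA per cell cannot be told apart. The part of cell makeup in the peroxisomal values was not tested.

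Other genes of the organelle gave a similar picture, with 0 passing the adjusted test. Of 20 further genes of peroxisomal beta-oxidation, bile acid conjugation and transport, 14 had a higher mean and 6 a lower one (median 0.07). By limma at an unadjusted p under 0.05, which 3.6% of all genes reached as higher and 3.57% as lower, 1 was higher and 1 was lower. They were Crat, the carnitine acetyltransferase (0.26, SE 0.12), and Baat, which joins bile acids to taurine or glycine (−0.23, SE 0.10). The groups of Baat did not overlap (3.76% of all genes). Acot2, a mitochondrial thioesterase, differed by 0.31 (SE 0.15), and Abcd3, which imports long-chain acyl-CoA, by 0.13 (SE 0.10). Without control 3 Baat differed by −0.20 and was no longer called (unadjusted p = 0.0681 by limma), and Abcd3 differed by 0.05. Of 7 further peroxins and division genes, 4 were higher and 3 lower (median 0.03), with 0 called at that p, and without control 3 with 1 called lower (4.59% of all genes). In this list Mff, an adaptor for organelle division, differed by −0.19 (SE 0.12) with all arrays and −0.09 without control 3, and the dim Gdap1 and Pex5l by 0.07 (SE 0.10) and 0.08 (SE 0.12).

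Of 23 ether lipid and other peroxisomal enzymes, 14 were higher and 9 lower (median 0.02), with 1 called in each direction at an unadjusted p under 0.05 by limma (3.6% of all genes higher, 3.57% lower). Without control 3, 1 was called higher and 2 lower, against 3.98% and 4.59% of all genes. Ddo, D-aspartate oxidase, gave 7.53, 7.60, 7.92 and 8.09 with hydrogen water, against 7.42, 7.38, 7.03 and 7.19 in controls. Its groups did not overlap, as was so for 3.76% of all genes, and the difference was 0.53 (SE 0.14, limma adjusted p = 0.618). Hao1, which oxidises glycolate, differed by −0.45 (SE 0.15, limma adjusted p = 0.638) and Agxt, which clears the glyoxylate it makes, by −0.23 (SE 0.14). Without control 3 Hao1 differed by −0.58 and Agxt by −0.34. Cat, the catalase that removes the hydrogen peroxide of the oxidases, differed by −0.03 (SE 0.10), with 13.67 in the hydrogen water group and 13.70 in controls, and by 0.01 without control 3.

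PPARalpha itself and its partners were also read. Ppara gave 11.13, 11.11, 11.26 and 11.67 with hydrogen water, against 11.05, 10.97, 11.05 and 10.80 in controls. The groups did not overlap (3.76% of all genes), and the difference of 0.33 (SE 0.13) did not pass (limma adjusted p = 0.687). Its dimer partner Rxra differed by 0.36 (SE 0.16) and the coactivator Lpin1 by 0.67 (SE 0.27), and 6 of the 8 genes in this list were higher. These 3 were called higher at an unadjusted p under 0.05 (3.6% of all genes), and without control 3 Rxra was not (0.22, unadjusted p = 0.136 by limma). Of 24 PPARalpha targets outside the peroxisome, 17 were higher and 7 lower (median 0.08). By limma at an unadjusted p under 0.05, 2 were higher (3.6% of all genes) and 1 was lower (3.57%). They were the lipid droplet genes Fitm2 (0.41, SE 0.13) and Plin2 (0.30, SE 0.14) on the higher side and Fitm1 (−0.54, SE 0.15) on the lower. The groups also did not overlap for Fitm1 and Fitm2, but did for Plin2. Without control 3 Plin2 was no longer called (0.21, unadjusted p = 0.128 by limma), Fitm2 differed by 0.32 and Fitm1 by −0.64. Control 3 was the lowest array for 11 of these 24 targets and for 9 of the 20 further beta-oxidation genes. In the other lists it was so for 7 of the 23 ether lipid and other peroxisomal enzymes and 4 of the 7 further peroxins and division genes. Among PPARalpha and its partners it was so for 2 of 8. Control 3 was the lowest for 18.4% of all genes and 26.3% of genes above the median level.

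Scaling shifted the whole comparison. Of the 1429 genes at an unadjusted p under 0.05, 718 were higher and 711 lower with hydrogen water. After median centring these counts were 421 higher and 1177 lower, and after quantile normalization 588 higher and 1179 lower. Under these scalings 11 and 16 of the 22 enzymes were higher, and 4 of 12 peroxins under either. Of all genes, 37.9% were higher with median centring and 39.4% with quantile normalization, against 48.7% with the values as deposited.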

How the data were processed

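The authors deposited 1 table of log2 signals. Per the submitters' processing notes they were made in Affymetrix Expression Console. Its version, the background correction, the normalization and any genome build are not stated in the labels or the file, and the log2 scale was read from the values. Of 35556 probe sets, 21789 had 1 gene symbol, 1621 several and 12146 none here. Symbols were updated by Entrez identifier through a RefSeq table of GRCm38.p6, used for names only (19856 of 19938 genes matched). Where a gene had several probe sets, the one with the highest mean over the 8 arrays was kept.

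The test was limma 3.58.1, run in R 4.3.3 (2 groups, no covariate, two-sided), adjusted over 19938 genes, with residual degrees of freedom of 6 and prior degrees of freedom of 5.88; no filter on level was applied. The step was tested on simulated data. Figures used matplotlib 3.10.9 (Python 3.11.15). Array number limits precision; no depth applies. Alternatives were quantile normalization, median centring, a filter on low values, the mean of all probe sets, a trended robust variance, array weights, a replicate block and each array left out.

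The members, the lists and the naming rule were chosen with earlier results of these data known. The rule gives every member, with values on each array for, in peroxins and in enzymes, the 4 with the smallest unadjusted p, the highest and lowest level and the 2 largest SDs, and both membrane proteins. In each other list it names the 3 genes with the smallest unadjusted p, plus Cat, Abcd3 and Ppara; another gene it names is not reported here. Values of Ehhadh, Hacl1, Nudt7, Acox2 and the thiolases on single arrays were added after they had been seen. Promoters were chosen in the same way. The 9 promoter motifs searched, on both strands, are all reported.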

Additional observations from a re-analysis of the deposited data

Results flagged for a closer look

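In a group of 4 arrays, a value was set apart where its gap to the nearest other array exceeded Dixon's 95% critical share of the group's range for 4 values. This was examined in 76 groups of values and found in 6; chance gives about 1 in 20 groups. Control 3 was the low array in 3 of them: Acot3 at 7.73 (other controls 9.40 to 9.69), Acot4 at 9.45 (10.73 to 10.75) and Pxmp2 at 9.01 (9.79 to 9.91). Hydrogen water 2 was the low array in 2: Hsd17b4 at 12.08 (others 12.34 to 12.36) and Pex5 at 9.03 (9.43 to 9.49). Ehhadh stood high on control 2, at 13.40 (12.96 to 12.98).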

How the results depend on the processing

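In all, 53 named genes were refitted under 15 alternatives, and no named gene passed an adjusted p of 0.05 by limma under any of them. Of 793 differences, 745 kept their direction and 48 turned, most of them near 0; the cause of the turns was not tested. Of the 36 members, 16 kept their direction throughout. The filter on low values, the trended robust variance and the replicate block leave each difference as it is, so no sign could turn under them. The mean of all probe sets likewise leaves the members, with 1 probe set each, unchanged. Over all genes, 0 to 1 passed the adjusted test when 1 array was left out (1 without control 2 and 1 without control 3, neither a named gene). With the filter on low values, 926 genes reached an unadjusted p under 0.05, since fewer were tested.

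At that unadjusted p by limma, 1 peroxin was called with quantile normalization (8.86% of all genes), 2 with array weights (10.4%) and 0 to 2 with 1 array left out (4.8% to 9.22%). The called enzyme, Hsd17b4, was lost (0 called) with median centring (8.01% of all genes), the filter on low values (7.97%), array weights and the replicate block (6.59%), and 0 to 2 enzymes were called with 1 array left out. Enzymes with a higher mean numbered 8 (without control 3) to 18 (without control 1 or hydrogen water 2). Array weights, which gave control 3 the lowest weight (0.424), gave 11.

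Differences that turned with quantile normalization were those of Acox2 (0.046), Eci2 (0.022), Ech1 (0.0048) and Slc27a2 (−0.010). With median centring they were Decr2 (−0.026), Phyh (−0.018) and Slc27a2 (−0.035), and with array weights Decr2 (−0.032), Acot8 (−0.042), Hacl1 (−0.044) and Cat (0.0028). With each array left out in turn, differences crossed 0 for Acox2 (−0.11 to 0.10), Acaa1a (−0.043 to 0.22), Acaa1b (−0.035 to 0.24), Eci2 (−0.082 to 0.040), Decr2 (−0.068 to 0.056), Ech1 (−0.056 to 0.018), Acot3 (−0.17 to 0.48), Acot4 (−0.012 to 0.42), Acot8 (−0.072 to 0.21) and Acot12 (−0.12 to 0.049). They also crossed 0 for Hacl1 (−0.16 to 0.23), Nudt7 (−0.29 to 0.14), Nudt19 (−0.18 to 0.032), Pxmp2 (−0.090 to 0.21), Pxmp4 (−0.16 to 0.052), Slc27a2 (−0.014 to 0.017), Pex5 (−0.21 to 0.028), Pex10 (−0.13 to 0.048), Pex19 (−0.15 to 0.052) and Cat (−0.072 to 0.018).

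The titles number the arrays 1 to 4 in each group. Deviations from the group means correlated at −0.16 to 0.06 between same-numbered arrays, and 0 of 4 pairs passed 0.1. With 4 arrays in a group these correlations cannot show whether same-numbered arrays belong together, and the titles do not say. With the replicate block, 1313 genes reached an unadjusted p under 0.05 and 0 passed the adjusted test.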
